A study of Mus musculus with 9 samples.

Results

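Genes of cyclic nucleotide and G protein signalling were examined for binding of the glucocorticoid receptor (GR) in mouse granulosa cells, before and after an ovulatory stimulus. The members were a given list of 9 of the 21887 protein-coding genes in the RefSeq table: Rgs2, Pde1a, Pde4b, Pde4d, Pde7b, Pde8a, Pde10a, Prkar2b and Crem. Each was described by the GR peaks and the H3K27ac peaks in its span with 50 kb to each side, here called its window. The windows lay on 9 different chromosomes and shared no peak. They held 69 of the 18584 GR loci of the series, a locus being the union of GR peaks that overlapped by 1 bp or more.

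Granulosa cells, the somatic cells around the oocyte, were collected from punctured ovaries of wild-type CBA x C57BL/6 F1 mice aged 21 days. Every mouse had been primed with 5 IU of equine chorionic gonadotropin (eCG, also called PMSG), which drives follicle growth as follicle-stimulating hormone does. The 6 h group received 5 IU of human chorionic gonadotropin (hCG), a stand-in for the luteinising hormone (LH) surge, 44 h after eCG and was killed 6 h later. The 0 h group was killed 44 h after eCG without hCG. Each group had 2 GR libraries, and 1 library at 0 h mapped H3K27ac, the histone acetylation found at promoters and enhancers in use. No 6 h group without hCG was among these libraries, so the effects of hCG, of the injection and of the extra hours cannot be told apart. The labels number the replicates without saying whether they came from separate mice, so the spread between them may be technical. The other 4 of the 9 samples were not analysed here.

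The LH receptor couples to the stimulatory G protein, and the cyclic AMP made by adenylyl cyclase releases the catalytic subunits of protein kinase A, which act on transcription factors of the CREB family. Phosphodiesterases break cyclic nucleotides down and so set how long and where the signal lasts, and RGS proteins shorten G protein signals by speeding up GTP hydrolysis. This pathway carries the ovulatory signal in granulosa cells. GR is a nuclear receptor that binds DNA once it carries a glucocorticoid.

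The GR lists held 14746 and 10588 peaks on chromosomes 1 to 19, X and Y at 6 h, and 10116 and 9726 at 0 h. The H3K27ac list held 37453. The median fold enrichment of a peak over the peak caller's background, an authors' value within 1 list, was 7.89 and 6.89 at 6 h and 7.34 and 7.68 at 0 h. The sources used here do not give read depth. A missing peak therefore shows only that the authors' limit was not passed in that library, and fold enrichments of different libraries are set side by side without a test. Of 8 granulosa markers, 8 had an H3K27ac peak in the gene or within 1 kb, among them Fshr, Cyp19a1 and Foxl2. For other cell types the counts were 2 of 4 theca, 2 of 4 leukocyte, 2 of 4 endothelial and 1 of 4 oocyte markers, against 55.4% of all protein-coding genes. Of these other markers, Cyp17a1, Nr2f2, Cd68, Itgam, Pecam1, Cdh5 and Gdf9 had a peak. Insl3, Star, Ptprc, Cd3e, Kdr, Tie1, Ddx4, Zp3 and Bmp15 had none.

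The promoters shown first are those of members that overlapped a GR locus called in all 4 libraries, and, for contrast, a Pde1a promoter beside a locus called only at 6 h. RefSeq (GRCm38.p6, the coordinates of mm10) listed 16 promoters for 8 of the 9 members, each 250 bases before to 50 after a start site. Of these, 5 promoters of 4 members overlapped a GR locus. The same share over all listed promoters is not given here, so this count has no background. Capitals mark every match, on either strand, to AGAACA (a single arm of the GR element) or TGACG (the core of the cyclic AMP response element, CGTCA on the other strand).
Rgs2, chr1:144004100-144004399, minus strand: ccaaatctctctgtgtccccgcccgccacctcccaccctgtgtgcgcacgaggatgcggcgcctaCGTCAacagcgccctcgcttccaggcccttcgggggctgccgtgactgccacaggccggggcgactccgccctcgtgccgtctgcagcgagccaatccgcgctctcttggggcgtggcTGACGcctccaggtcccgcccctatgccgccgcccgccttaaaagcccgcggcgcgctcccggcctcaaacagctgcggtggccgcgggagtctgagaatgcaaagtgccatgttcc
Pde8a, chr7:81213015-81213314, plus strand: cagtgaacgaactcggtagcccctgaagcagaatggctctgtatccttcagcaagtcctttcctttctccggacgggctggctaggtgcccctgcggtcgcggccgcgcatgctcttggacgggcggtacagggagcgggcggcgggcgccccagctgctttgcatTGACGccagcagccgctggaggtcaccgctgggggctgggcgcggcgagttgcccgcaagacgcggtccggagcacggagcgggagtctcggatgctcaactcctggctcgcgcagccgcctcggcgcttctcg
Prkar2b, chr12:32061228-32061527, minus strand: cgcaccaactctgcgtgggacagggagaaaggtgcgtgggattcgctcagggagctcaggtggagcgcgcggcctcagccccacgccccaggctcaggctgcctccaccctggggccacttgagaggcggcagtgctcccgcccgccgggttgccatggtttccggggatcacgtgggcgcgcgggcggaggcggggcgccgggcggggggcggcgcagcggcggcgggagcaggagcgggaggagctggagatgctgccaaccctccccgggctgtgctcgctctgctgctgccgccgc
Pde10a, chr17:8801495-8801794, plus strand: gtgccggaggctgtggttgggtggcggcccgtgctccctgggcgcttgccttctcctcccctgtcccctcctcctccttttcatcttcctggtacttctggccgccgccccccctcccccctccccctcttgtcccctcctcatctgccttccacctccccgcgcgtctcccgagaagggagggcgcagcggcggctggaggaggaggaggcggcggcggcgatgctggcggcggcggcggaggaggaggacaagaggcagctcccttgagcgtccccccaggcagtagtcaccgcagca
Pde1a, chr2:80038853-80039152, minus strand: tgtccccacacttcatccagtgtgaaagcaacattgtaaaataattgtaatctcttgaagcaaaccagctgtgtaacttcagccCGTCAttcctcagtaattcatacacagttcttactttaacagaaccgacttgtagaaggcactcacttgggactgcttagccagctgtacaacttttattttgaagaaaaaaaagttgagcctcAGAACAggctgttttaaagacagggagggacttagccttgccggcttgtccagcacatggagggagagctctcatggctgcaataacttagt

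The 4 printed promoters that overlapped a GR locus were rich in G and C, with 70.0% at Rgs2, 68.7% at Pde8a, 75.0% at Prkar2b and 71.3% at Pde10a, against a median of 52.7% over all 32851 listed promoters. The Pde1a promoter had 43.3%. TGACG occurred at −185 and −67 from the start site of Rgs2, at −84 in Pde8a and at −166 in Pde1a, and 20.8% of all listed promoters hold it. AGAACA occurred at −42 in Pde1a, and 18.97% of all promoters hold it. Among the promoters not printed, AGAACA occurred at −88 in another Pde1a promoter and at −228 and −219 in separate Pde4b promoters. TGACG occurred at −34 in the first of these Pde4b promoters. None of these unprinted promoters overlapped a GR locus. The full palindromic GR element (AGAACA, any 3 bases, then TGTTCT), present in 3 of the 32851 promoters, was in none of the 16. Nor were TGACGTCA (the full cyclic AMP response element, in 1.79% of all promoters), AAGGTCA (the element of NR5A receptors, in 4.72%) or TGACTCA (an AP-1 element, TGAGTCA on the other strand, in 5.20%). Searches covered both strands, and TGACGTCA contains TGACG.

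GR was called near all 9 genes, as near 68.8% of all protein-coding genes, but their peak counts at the 2 times differed. Rgs2, Pde1a and Pde4d had more GR peaks in each 6 h library than in either 0 h library. Prkar2b and Pde7b had fewer in each 6 h library, and in Pde4b, Pde8a, Pde10a and Crem the libraries of the 2 times overlapped. The counts were small in Pde4d (4 and 2 at 6 h, 0 and 1 at 0 h) and in Pde7b (2 and 1 at 6 h, 3 and 4 at 0 h). Among the 15063 protein-coding genes with a GR peak in the window, 15.8% had more peaks in each 6 h library and 5.32% had fewer. With 2 against 2 libraries the exact permutation test cannot give a two-sided p below 0.333, so no difference between the times could pass it. For Rgs2, Pde1a, Pde4d, Prkar2b and Pde7b it gave 0.333, which shows only that the libraries of the 2 times did not overlap. It gave 0.667 for Crem and more for Pde4b, Pde8a and Pde10a. The members were chosen with earlier results of these data known, so these values only describe the counts.

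**Figure D1:**
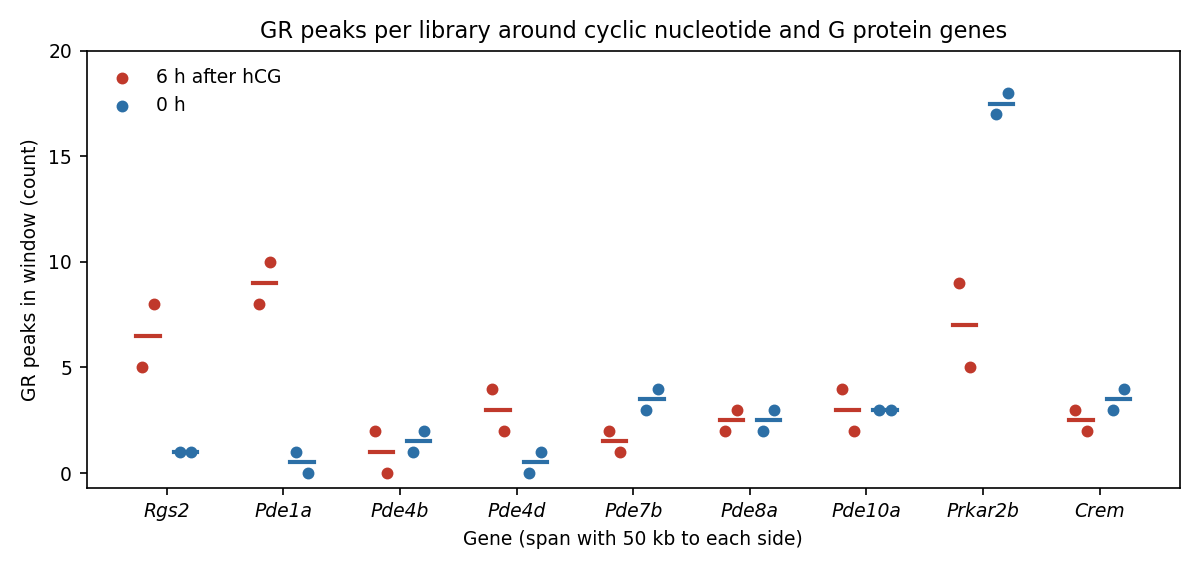
GR peaks in the window of each gene (count, y axis), with 1 point per library and a bar at the mean of 2 libraries, 6 h in red and 0 h in blue. Pde1a had 8 and 10 peaks at 6 h and 1 and 0 at 0 h, while Prkar2b had 9 and 5 at 6 h and 17 and 18 at 0 h.

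Summed over the 9 windows, the libraries of the 2 times overlapped, with 39 and 33 peaks at 6 h against 31 and 36 at 0 h (36 ± 4.24 and 33.5 ± 3.54, mean ± SD, n = 2 each). This excess of 2.5 at 6 h depended on the setting. It was 8.5 with the stronger 50% of each list, 5.5 without the second 6 h library or with windows of 100 kb to each side, and 5 without the second 0 h library. It turned to −0.5 without the first 6 h library and to −3.5 with lists of equal length, and was 0 without the first 0 h library. Prkar2b weighed heavily in this sum. Without it, a subset chosen after its values were seen, the other 8 windows held 30 and 28 peaks at 6 h and 14 and 18 at 0 h. The means of these 8 windows differed by 13 peaks. Pde1a (8 and 10 against 1 and 0) differed by 8.5 and Rgs2 (5 and 8 against 1 and 1) by 5.5. The other windows together added nothing to this excess. Pde4d also had more at 6 h and Pde7b fewer, and in the remaining genes the libraries of the 2 times overlapped. The excess was thus not shared by all 8 windows.

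Of the 69 loci, 12 were found in both 6 h libraries but in no 0 h library (only at 6 h), 7 in both 0 h libraries and in no 6 h library (only at 0 h), 10 in all 4, and 40 in other sets of libraries. In the whole series these classes made up 15.1%, 4.15% and 27% of the loci, and in the 9 windows 17.4% (95% Wilson interval 10.2 to 27.98), 10.1% (5.00 to 19.5) and 14.5% (8.07 to 24.7). Intervals cover counting error only, and neighbouring loci are not independent. Prkar2b alone held 28 of the 69 loci, 5 of the 7 only at 0 h and 2 of the 10 in all 4 libraries. The shares of the 9 windows therefore lean on 1 gene. The 40 loci in other sets were 58.0% of the 69 (46.2 to 68.9), near the 53.8% of the whole series. Of these 40, 30 were called in 1 library, 5 in 1 library of each time and 5 in 3 libraries. Prkar2b held 16 of the 30, and the share of such loci in the whole series is not given here.

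A locus only at 6 h lay near 4 of the 9 genes (Rgs2, Pde1a, Pde4d and Prkar2b), against 16.5% of all protein-coding genes and 26.3% of the 2429 genes that span 100 kb or more, as 7 of the members do. A locus only at 0 h lay near 3 (Pde4b, Pde7b and Prkar2b), against 6.78% of all genes and 9.59% of long ones. A locus in all 4 libraries lay near 6 (Rgs2, Pde7b, Pde8a, Pde10a, Prkar2b and Crem), against 45.5% and 37.2%. The members differ in length, from 4.81 kb for Rgs2 to 1302 kb for Pde4d, and a long window has more room for peaks.

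**Figure D2:**
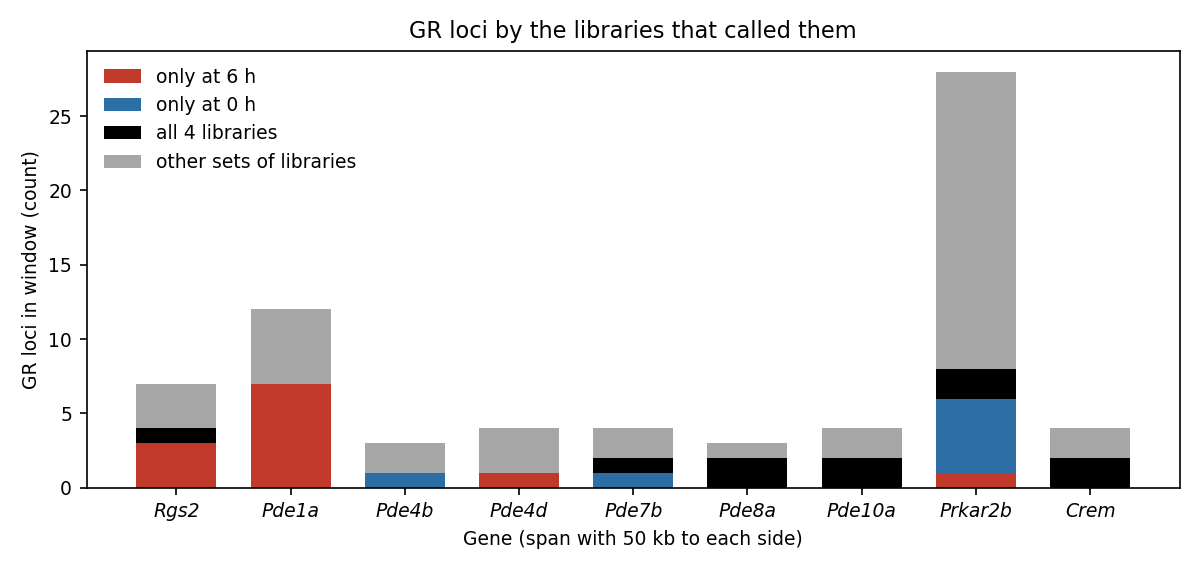
Number of GR loci in the window of each gene (stacked bars), split by the libraries that called them. Loci only at 6 h (red) made up 7 of the 12 loci of Pde1a and 3 of the 7 of Rgs2, whereas Prkar2b held 28 loci, of which 5 were only at 0 h (blue) and 20 in other sets of libraries (grey).

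Rgs2 encodes a regulator that switches off G protein alpha subunits, those of the Gq class in particular, and is known to be induced by LH in granulosa cells. The gene (chromosome 1, 143999338 to 144004149, minus strand) had 5 and 8 GR peaks at 6 h and 1 and 1 at 0 h (6.5 ± 2.12 and 1 ± 0, exact permutation p = 0.333, the smallest possible). At 0 h GR was called at the promoter alone. This locus (144003552 to 144004658), called in all 4 libraries, had fold enrichments of 13.2 and 9.21 at 6 h and 9.28 and 11.2 at 0 h. Its summits lay at −8 and 56 bp from the start site at 6 h, and at 25 and −43 bp at 0 h, so 3 of the 4 summits fell within the promoter printed above and the other just after it. The fold enrichments of the 2 times overlapped.

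At 6 h further peaks covered the body and the far end of Rgs2. A locus only at 6 h (143998279 to 144000726) ran across the downstream end of the gene and was called as 1 peak of 2289 bp in the first library and as 3 peaks in the second, with highest fold enrichments of 9.51 and 14.4. The second locus only at 6 h (144000905 to 144001866) lay inside the gene, with 7.30 and 7.11. The third (144006436 to 144006833) lay 2287 bp before the start site, with 10.5 and 5.43. At 0 h an H3K27ac peak of 5084 bp covered the promoter and most of the gene body, and 4 of the 7 loci overlapped it, 2 of them only at 6 h. The locus across the downstream end only touched it: in the second 6 h library its peaks of 14.4 and 10.9 lay outside H3K27ac and the third, of 7.40, overlapped it. The locus before the start site lay in a neighbouring H3K27ac peak of 1898 bp. The remaining 2 loci, 42567 and 43306 bp beyond the downstream end, were called in the second 6 h library alone and lay outside H3K27ac. Of all protein-coding genes, 1.48% had 3 or more loci only at 6 h, a cut-off set by the count of Rgs2 itself.

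**Figure D3:**
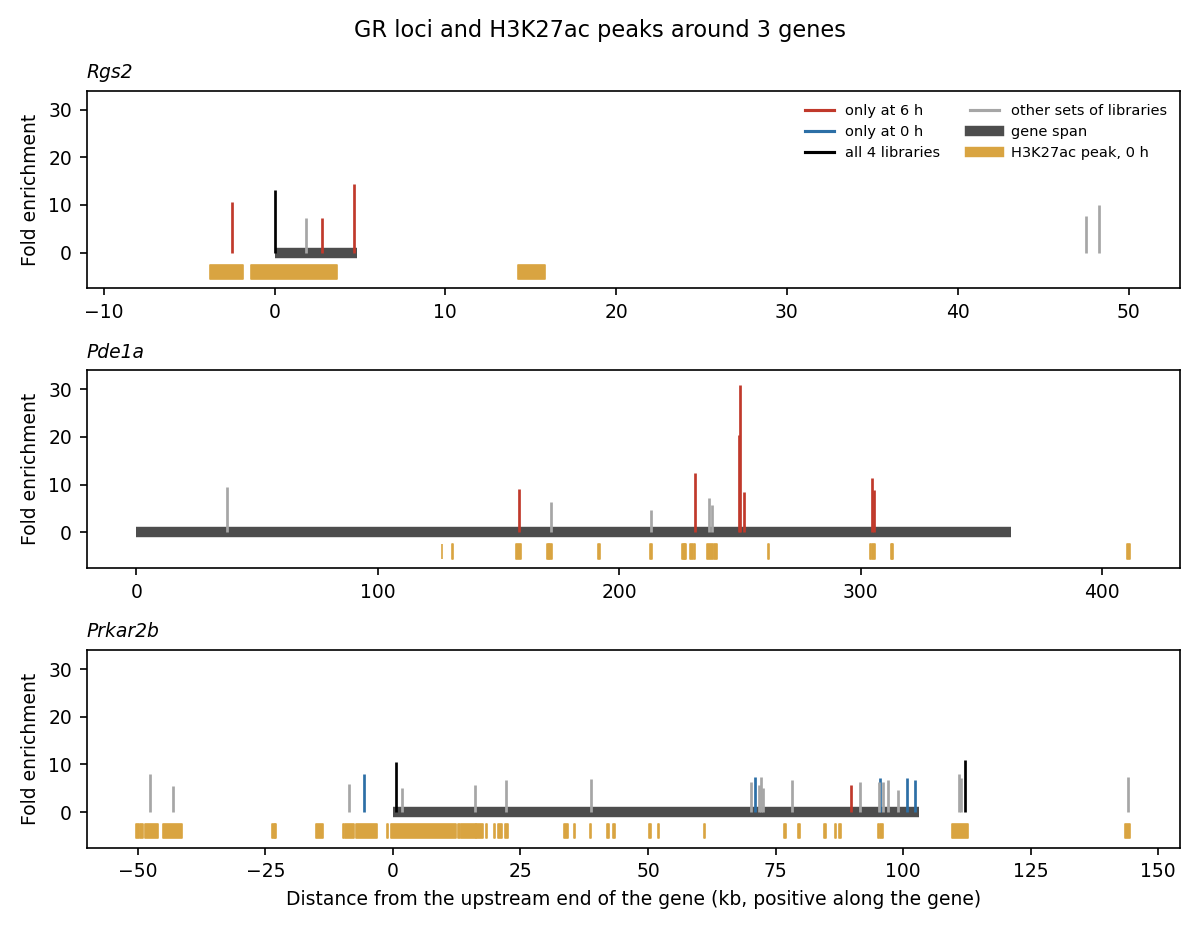
GR loci around Rgs2, Pde1a and Prkar2b by distance from the upstream end of the gene (kb, x axis), with height giving the highest fold enrichment in any library (authors' value, y axis), the gene as a dark bar and H3K27ac peaks of 0 h as orange blocks under it. The red lines (only at 6 h) crowd around Rgs2 and reach 31.0 inside Pde1a, and the low blue and grey lines spread along the downstream part of Prkar2b.

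Pde1a encodes a phosphodiesterase that is switched on by calcium and calmodulin and breaks down both cyclic GMP and cyclic AMP. It held the GR peaks with the highest fold enrichments in the 9 windows, all at 6 h. The window (gene at chromosome 2, 79834453 to 80196522, minus strand) held 8 and 10 peaks at 6 h and 1 and 0 at 0 h (9 ± 1.41 and 0.5 ± 0.707, exact permutation p = 0.333, the smallest possible). All 12 loci lay inside the gene, and none was called in all 4 libraries. Of these, 7 were only at 6 h, a number reached by 0.119% of all protein-coding genes (26 of 21887). This cut-off was the gene's own count, so the share gives its place among genes and tests nothing. The window spans 462 kb, and the share among long genes alone is not given here.

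The leading locus (79945917 to 79946735) had fold enrichments of 31.0 and 30.8, and its rank by the authors' p-value was 30 in either 6 h list. It lay more than 100 kb from either end of the gene, 37518 bp from the nearest listed start site, and outside H3K27ac of 0 h. The next locus began 149 bp further on (79946885 to 79947403) and had 19.2 and 20.5, and a weaker one before it (79944604 to 79944931) had 8.52 and 8.07. These 3 loci stood together, none of them in a called H3K27ac peak. A second pair, 661 bp apart (79890710 to 79891167 and 79891829 to 79892283), had 8.89 and 8.20, and 11.5 and 9.79. Both overlapped H3K27ac peaks of 0 h, as did the loci at 79964930 to 79965411 (12.5 and 8.92) and 80037929 to 80038307 (9.16 and 6.71). The last of these lay 595 bp from the start site of the Pde1a promoter printed above and in the same H3K27ac peak of 1867 bp. Of 5 other loci in the gene, 3 were called in the second 6 h library alone, 1 in the first and 1 in the first 0 h library.

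Pde4b and Pde4d encode phosphodiesterases specific for cyclic AMP, and mice without Pde4d are known to ovulate poorly. Both are long genes, and the Pde4b window held 3 GR loci and that of Pde4d 4, against a median of 2 for genes of 100 kb or more. Pde4d (chromosome 13, 108654177 to 109955969, plus strand) had 4 and 2 peaks at 6 h and 0 and 1 at 0 h (3 ± 1.41 and 0.5 ± 0.707, exact permutation p = 0.333). Its 4 loci all lay inside the gene, within 179412 bp of its downstream end, and its density of 0.285 loci per 100 kb compares with 0.484 for Pde4b and a median of 0.486 for the windows of genes of 100 kb or more. The locus only at 6 h (109911041 to 109911300) had 9.94 and 11.3 and lay outside H3K27ac. A locus 7765 bp before it (109902782 to 109903275) was called in both 6 h libraries (6.87 and 5.41) and in the second 0 h library (5.39), and lay in H3K27ac. The promoter listed for Pde4d overlapped neither a GR locus nor an H3K27ac peak.

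Pde4b (chromosome 4, 102087332 to 102607275, plus strand) had 2 and 0 peaks at 6 h and 1 and 2 at 0 h, so the groups overlapped. Its locus only at 0 h (102600726 to 102601009), near the downstream end, had fold enrichments of 6.01 and 7.29, below the list medians, and lay outside H3K27ac. A peak of the first 6 h library alone (102570131 to 102570514, with 6.39) lay 71 bp from one of its 4 listed start sites. The third locus (102510995 to 102511251) was called in 1 library of each time, with 8.76 at 6 h and 9.15 at 0 h.

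Pde7b and Pde8a also encode enzymes specific for cyclic AMP, and Pde8a is known for its high affinity. Pde7b (chromosome 10, 20397052 to 20725078, minus strand) had 2 and 1 peaks at 6 h and 3 and 4 at 0 h (1.5 ± 0.707 and 3.5 ± 0.707, exact permutation p = 0.333). The locus at the upstream end of the gene (20724832 to 20725252) had 15.2 in the first 6 h library and 7.58 and 9.75 at 0 h, and was not called in the second 6 h library. The locus in all 4 libraries (20695576 to 20696059), inside the gene, had 9.62 and 5.20 at 6 h and 7.92 and 5.78 at 0 h. The locus only at 0 h (20486762 to 20487128) was weak, at 5.95 and 4.94. All 4 Pde7b loci lay in H3K27ac, and 18 of the 22 H3K27ac peaks in the window had no GR locus.

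Pde8a (chromosome 7, 81213265 to 81334535, plus strand) had 2 and 3 peaks at either time. GR was called at its promoter in all 4 libraries (81212791 to 81213763), with 7.25 and 6.88 at 6 h and 9.15 and 7.75 at 0 h, and the summits lay at −150 and −31 bp from the start site at 6 h and at −91 and −129 bp at 0 h. A weaker locus 589 bp before the gene (81212237 to 81212676) was called in the second library of each time, with 4.89 at 6 h and 6.01 at 0 h.

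Pde10a encodes a phosphodiesterase for cyclic AMP and cyclic GMP that is best known from the striatum of the brain. The gene (chromosome 17, 8525187 to 8986648, plus strand) had 4 and 2 peaks at 6 h and 3 and 3 at 0 h. The locus at an inner promoter (8800900 to 8801553) was called in all 4 libraries, with 9.45 and 7.0 at 6 h and 9.81 and 8.57 at 0 h. Its summits lay at −496 and −357 bp from the listed start site at 6 h and at −701 and −456 bp at 0 h, so the locus reached only the upstream edge of the promoter printed above, through the peaks of 3 libraries, and the peak of the first 6 h library ended before it. The second locus in all 4 libraries (8506015 to 8506424) lay 18763 bp before the gene, with 7.57 and 6.89 at 6 h and 7.63 and 7.98 at 0 h. At the upstream end of the gene, 43 bp before it, a locus (8524819 to 8525144) was called in the first library of each time. Its fold enrichment was 9.51 at 6 h and 6.85 at 0 h. All 4 loci lay in H3K27ac.

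Prkar2b encodes the type II beta regulatory subunit of protein kinase A, which holds the catalytic subunits inactive until cyclic AMP binds and is known to be induced by follicle-stimulating hormone in rat granulosa cells. It showed the largest excess of peaks at 0 h among the 9 genes. The window (gene at chromosome 12, 31958450 to 32061648, minus strand) had 9 and 5 peaks at 6 h and 17 and 18 at 0 h (7 ± 2.83 and 17.5 ± 0.707, exact permutation p = 0.333, the smallest possible). With 28 loci, 40.6% of the 69, it had 13.8 loci per 100 kb against a median of 0.982 over all windows, a density that 96 genes reached or passed. Of all protein-coding genes, 0.0868% had 28 or more loci, and 0.0777% had 20 or more in other sets of libraries, as it did. Its 5 loci only at 0 h were a number reached by 0.0183% (4 of 21887, Prkar2b included). These cut-offs were the gene's own counts, so the shares give its place among genes and test nothing.

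The promoter locus of Prkar2b (32060465 to 32061603) was called in all 4 libraries, with highest fold enrichments of 9.09 and 7.21 at 6 h and 10.5 and 8.73 at 0 h. The strongest locus of the window, also called in all 4 (31949167 to 31949848, with 10.02 and 9.0 at 6 h and 9.77 and 10.9 at 0 h), lay 682 bp from an end of the neighbouring gene Hbp1. Besides the promoter locus, 19 weaker loci lay along the gene body, with fold enrichments of 3.99 to 7.31. Of these, 15 were called in 0 h libraries alone, 3 in 6 h libraries alone and 1 in 1 library of each time.

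The 5 loci only at 0 h in the Prkar2b window had fold enrichments of 4.64 to 8.05. The best ranked (32067144 to 32067467, with 4.64 and 8.05) lay 5496 bp before the gene and in H3K27ac. The one nearest to an end of the gene (31959195 to 31959554, with 6.77 and 6.67) lay 745 bp inside its downstream end and outside H3K27ac. The locus only at 6 h (31971648 to 31971878) was weaker still, at 3.99 and 5.57. Of the 16 loci of the window called in 1 library, 2 and 2 came from the 6 h libraries and 6 and 6 from the 0 h libraries. Of the 5 loci only at 0 h, none was among the stronger 50% of the peaks of both 0 h lists.

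Crem encodes a relative of CREB whose inner promoter gives rise to ICER, a repressor of cyclic AMP response genes that gonadotropins are known to induce in rat granulosa cells. The gene (chromosome 18, 3266354 to 3337773) had 3 and 2 peaks at 6 h and 3 and 4 at 0 h, so the groups touched. The locus across its end at 3337773 (3336691 to 3338175) was called in all 4 libraries, with highest fold enrichments of 9.93 and 5.71 at 6 h and 8.52 and 9.70 at 0 h. A pair of weaker peaks inside the gene, 86 bp apart, came from 1 library each, with 7.28 in the first 6 h library and 7.55 in the second 0 h library. The other locus in all 4 libraries (3382881 to 3383585, with 5.56 and 5.03 at 6 h and 8.81 and 7.53 at 0 h) lay across an end of the neighbour Cul2. All 4 loci lay in H3K27ac, and each of the 3 H3K27ac peaks of the window held a GR locus.

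**Figure D4:**
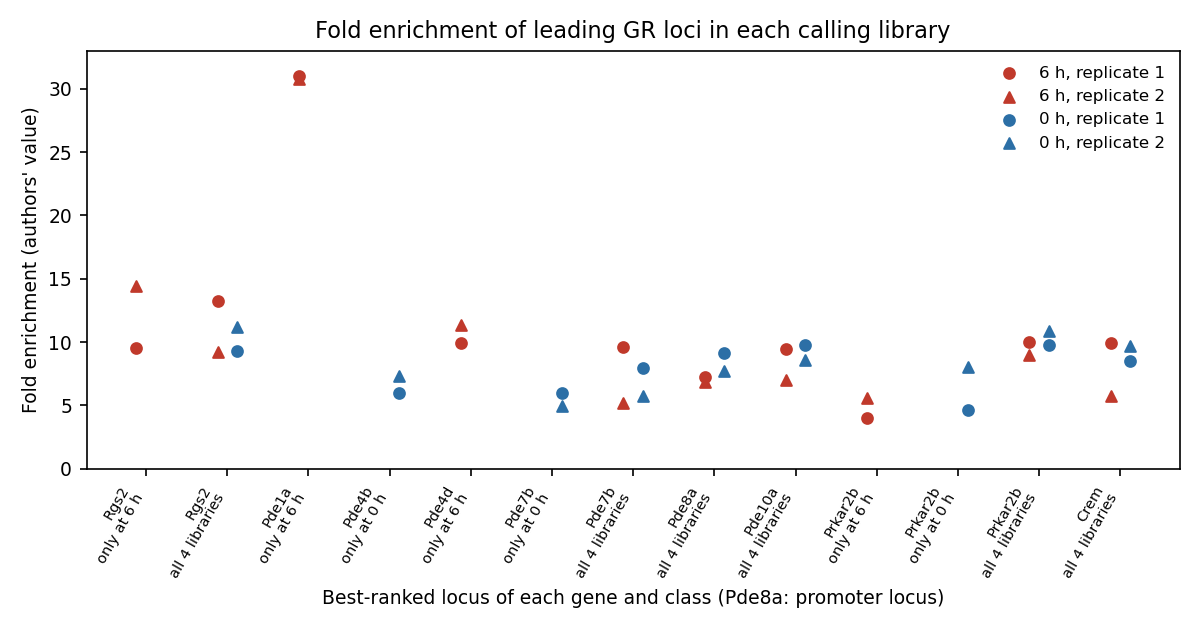
Fold enrichment (authors' value, y axis) of the best-ranked locus of each gene and class (for Pde8a the promoter locus), with 1 symbol per library that called it, 6 h in red and 0 h in blue, circles for replicate 1 and triangles for replicate 2. The Pde1a locus only at 6 h, at 31.0 and 30.8, stands above the rest, while the Rgs2 promoter locus was called in all 4 libraries, with 13.2 and 9.21 at 6 h and 9.28 and 11.2 at 0 h.

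The classes differed in how near they lay to a gene end, in these windows as elsewhere. A position inside a member was held by 11 of the 12 loci only at 6 h, but also by 51 of all 69. It was held by 6 of the 7 only at 0 h and by 6 of the 10 in all 4 libraries. Long genes fill much of their own windows, so this position is partly set by the window. Inside any gene, the share only at 6 h was 91.7% (Wilson interval 64.6 to 98.5). Elsewhere, where loci were not picked by these windows, it was 59.8%. Within 1 kb of a gene end lay 1 of the 12 (8.33%, 1.49 to 35.4), against 9.20% of this class elsewhere. For loci only at 0 h this was 1 of 7 (14.3%, 2.57 to 51.3), against 31.9% elsewhere. For loci in other sets of libraries it was 5 of 40 (12.5%, 5.46 to 26.1), against 44.1% elsewhere. Of the 10 loci in all 4 libraries, 7 lay within 1 kb of a gene end (70.0%, 39.7 to 89.2), against 76.6% elsewhere, and some of these ends belonged to neighbouring genes, such as Hbp1 and Cul2. Per library, 30.8% and 33.3% of the peaks in the windows lay near a gene end at 6 h and 45.2% and 38.9% at 0 h. All other peaks gave 53.2% and 46.0% at 6 h and 67.9% and 65.4% at 0 h.

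Acetylation before hCG also differed between the classes. All 10 loci called in all 4 libraries overlapped H3K27ac of 0 h (Wilson interval 72.2 to 100%), against 98.4% elsewhere. Of the loci only at 6 h, 7 of 12 did (58.3%, 32.0 to 80.7), against 39.2% (37.4 to 41.1) elsewhere. Of the loci only at 0 h, 3 of 7 did (42.9%, 15.8 to 75.0), against 91.8% (89.6 to 93.5) elsewhere. The 4 loci only at 0 h outside H3K27ac were 3 in the Prkar2b gene body and the one in Pde4b. H3K27ac after hCG was not analysed here.

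Peak by peak, 82.1% and 66.7% of the GR peaks in the 9 windows overlapped H3K27ac at 6 h, and 77.4% and 77.8% at 0 h. The groups overlapped, and the difference of −3.24 points was −34.5 with the stronger 50% of each list, −10.9 without the first and 4.45 without the second 6 h library. Among all other GR peaks the shares were 77.9% and 70.7% at 6 h and 94.7% and 94.6% at 0 h. The windows minus the other peaks gave 4.18 and −4.03 percentage points at 6 h and −17.2 and −16.8 points at 0 h. In the Prkar2b window the shares were 77.8% and 60% at 6 h and 64.7% and 61.1% at 0 h. In the other 8 windows they were 83.3% and 67.9% at 6 h and 92.9% and 94.4% at 0 h.

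**Figure D5:**
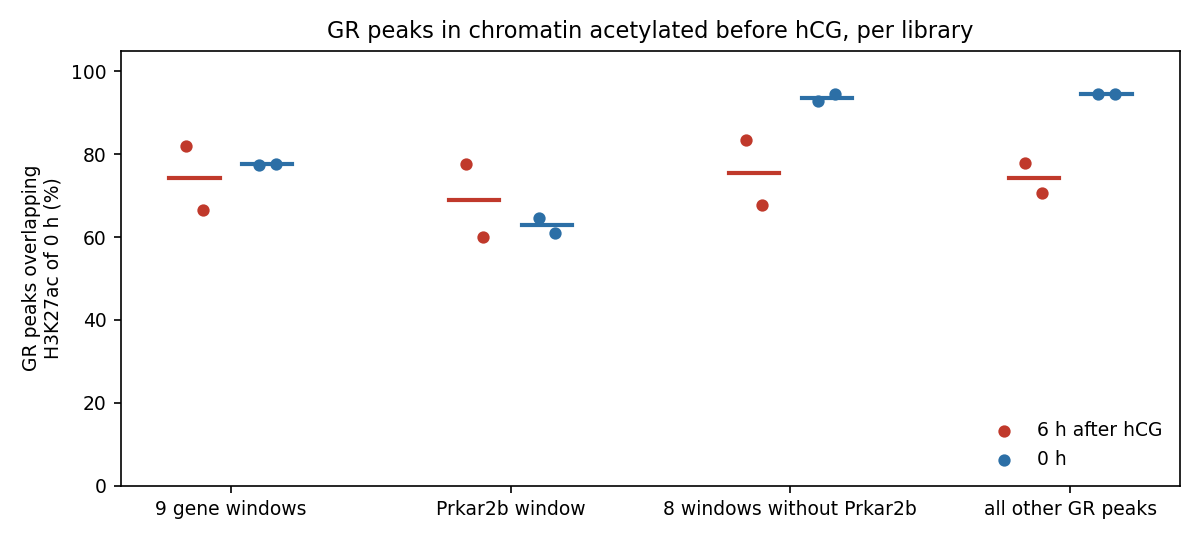
Share of GR peaks that overlap an H3K27ac peak of 0 h (%, y axis), with 1 point per library and a bar at the mean of 2 libraries, 6 h in red and 0 h in blue. At 0 h the Prkar2b window, at 64.7% and 61.1%, lies below the other 8 windows, at 92.9% and 94.4%, and below all other GR peaks, at 94.7% and 94.6%.

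All 9 windows held H3K27ac peaks, against 75.4% of all protein-coding genes. There were 108, of which 38 overlapped a GR locus and 70 did not. The same share over all H3K27ac peaks of the series is not given here, so these counts have no background. Prkar2b had the most, 36 peaks that covered 44848 bp, among them 1 of 12765 bp over the promoter. Pde7b had 22 and Pde1a 20, while Rgs2 and Crem had 3 each and Pde4b 4.

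The other genes of the pathway were described by 7 lists with 82 genes. A locus only at 6 h lay near 17 of them (20.7%, against 16.5% of all protein-coding genes), a locus only at 0 h near 6 (7.32%, against 6.78%) and a locus in all 4 libraries near 42 (51.2%, against 45.5%). These shares were near the background. The genes with most loci only at 6 h, 2 each, included Adcy3 and Adcy7, which encode adenylyl cyclases, Akap5, which encodes an anchoring protein for protein kinase A, and Gna12, which encodes a G protein alpha subunit. Of the phosphodiesterases outside the 9, 1 of 12 had such a locus, Pde4c. Of the other subunits and inhibitors of protein kinases A and G, 5 of 10 did (Prkacb, Prkar1a, Prkar2a, Pkig and Prkg2, 1 locus each). Of the Epac and CREB family list, 4 of 9 did (Rapgef4, Atf1, Crtc3 and Ep300). The counts were 3 of 13 for cyclases, 1 of 11 for G protein subunits, 1 of 10 for anchoring proteins and 2 of 17 for RGS and desensitisation genes. Loci only at 0 h lay near Adcy9, Akap11, Gna13, Gnb1, Rgs9 and Rgs19, 1 each.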

How the data were processed

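GR and H3K27ac were profiled by ChIP-seq in mouse granulosa cells. Reads were aligned with Bowtie2 2.4.5 to mm10 and peaks called with MACS2, per the submitters' processing notes; the sources used here give no MACS2 version, read depth or control. The authors deposited 1 list per library. For each GR peak the deposited files give a score (10 times the −log10 p-value), a fold enrichment (ratio, column 7), −log10 p- and q-values and a summit; each −log10 p-value is 9 or more. The deposited H3K27ac list gives positions only. Peaks off chromosomes 1 to 19, X and Y were dropped.

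GR peaks sharing at least 1 bp were joined into loci with Python 3.11.15 and pandas 2.3.3, and H3K27ac overlap also meant 1 bp. Genes, starts and promoters came from RefSeq GRCm38.p6. Libraries were compared by exact permutation tests, shares by 95% Wilson intervals (scipy 1.17.1). No p is given for sums over the 9 genes or adjusted over them, since members and lists were chosen with earlier results of these data known. Named loci were, for each gene and class, the best ranked by mean within-list rank of the p-value and the one nearest to a gene end; further loci were named after their values were seen. The 4 other pathway genes with most loci of a class were named, ties by symbol, and any others after their values were seen. A locus in the Pde8a window is not reported here. The merging was tested on simulated peaks. Alternatives were the window, list length and strength, overlap, merging, left-out libraries and a replicate block.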

Additional observations from a re-analysis of the deposited data

How the results depend on the processing

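Of 113 recomputed values for 10 results, 97 kept their direction or stayed within 1.5 times (for shares, within the interval). Some of the 97 could not change. The overlap and merging settings define loci and leave values counted over peaks as they are. The replicate block leaves a difference of means as it is. The difference in GR peaks over the 9 windows (6 h minus 0 h, 2.5) ranged from −0.5 to 5.5 with 1 library left out: it turned to −0.5 without the first 6 h library and vanished (0) without the first 0 h library. With the same number of peaks from each list it was −3.5, and with the stronger 50% of each list 8.5. The share of the list in the windows differed by −0.0502 percentage points (−0.0821 to −0.0184 with 1 library left out), by 0.0919 with the stronger 50% of each list, and by 0.0722 without Prkar2b, an alternative chosen after seeing the data. The difference in H3K27ac overlap (−3.24 points) ranged from −10.9 to 4.45 with 1 library left out and was positive without the second 6 h library. It was −34.5 with the stronger 50% of each list, −18.1 without Prkar2b, and −5.98 to −0.713 with the other settings that changed it. With 1 library left out, loci only at 6 h numbered 12 to 21, against 12 (21 without the first and 20 without the second 6 h library), and those only at 0 h numbered 7 to 16, against 7 (12 without the first 6 h library, 16 without the first and 14 without the second 0 h library). With a library left out, 1 condition fewer defines these classes, so a rise is built into them. With the stronger 50% of each list, no locus only at 0 h remained (0 loci, 0 members), and 5 loci near 3 members were in all 4 libraries. Without Prkar2b, 2 loci were only at 0 h. Rgs2 had 1 to 7 and Pde1a 6 to 10 loci only at 6 h over all settings.

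Replicate numbers gave no sign of pairing (correlation across 5012 loci of 0.0280). With the replicate as a block, the 3 differences were the same, 2.5 peaks, −0.0502 and −3.24 points, and the smallest possible exact p was 0.5. Peaks near the limit of about 1e-09 and the unknown read depth limit what an absent peak shows.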

Other observations

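The Pde4d span holds the hairpins of 2 miRNAs listed by RefSeq. Mir1904 (chromosome 13, 109903809 to 109903888) lies 534 bp beyond the GR locus called in both 6 h libraries and in the second 0 h library, and 111 bp from an H3K27ac peak. Mir582 (109324744 to 109324824) lies 451430 bp from the nearest GR locus. Outside the windows, the nearest further GR locus was 57469 bp from Rgs2, 61271 bp from Prkar2b and 64474 bp from Pde7b, each called in other sets of libraries, and 118734 to 400337 bp from the other 6 genes.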
